A study of Mus musculus with 6 samples.

Results

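The enzymes that make citrulline and handle arginine in the gut lining were followed by RNA-seq in the duodenal epithelium of 3 WT mice and 3 Esrra-/- mice. The set described holds 9 of the 22611 genes in the deposited FPKM table, namely Cps1, Otc, Nags, Oat, Aldh18a1, Ass1, Asl, Ddah1 and Ddah2. The first 7 of these and Ddah2 were taken for their function, and Ddah1 was chosen by its measured FPKM, which was higher in the Esrra-/- libraries. The values of Ddah1 are therefore given as a description with no test. FPKM counts the fragments of a gene relative to the length of the transcript and to all mapped fragments, so levels of different genes can be set side by side.

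The WT and Esrra-/- mice were littermates, and all of them ate a high-fat diet before the duodenum was collected. Esrra-/- mice carry a germline null allele, so ESRRA is missing from every tissue, and differences that arise in the gut cannot be told apart from those that follow from other tissues. Both sexes were used. The age of these mice, and whether they carried the Villin-CreERT2 transgene of the breeding scheme, are not given in the sources used here. Each library came from 1 mouse, and the epithelium was released with EDTA and pelleted for RNA, and the labels name no separation of crypts from villi.

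In adult mammals the enterocyte is a main source of circulating citrulline. In its mitochondria, glutamine and proline carbons are turned into ornithine by way of pyrroline-5-carboxylate, and ammonia is fixed as carbamoyl phosphate. Ornithine and carbamoyl phosphate are then joined to citrulline, which leaves the cell and is made into arginine mainly in the kidney. Arginine itself can be used for nitric oxide, creatine, polyamines and protein methylation.

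The libraries carried their labels. Esrra had 49.4, 73.5 and 103.6 FPKM in WT replicates 1 to 3 and 10.4, 9.42 and 8.72 FPKM in the Esrra-/- replicates, which is −2.92 ± 0.26 (SE) as a log2 fold change (limma adjusted p = 0.0215). Villus enterocyte markers summed to between 40159 and 65376 FPKM in WT and between 49639 and 69340 FPKM in Esrra-/-, with none of the 13 genes called. The 10 markers of crypt and dividing cells summed to 226 to 353 FPKM in WT and 117 to 268 FPKM in Esrra-/-, with 1 called lower, and the 5 Paneth cell markers to 3825 to 8921 against 833 to 3877 FPKM, with 3 called lower. Calls are defined below. Over all genes tested, 3.28% were called lower and 1.35% higher. None of the called markers had an adjusted p under 0.05 in limma. Mesenchymal and smooth muscle markers stayed under 5.63 FPKM in sum, endothelial under 2.52 and hepatocyte under 3.64 in every library. The most abundant endothelial marker, Tek, was called higher (0.503 ± 0.639 to 1.64 ± 0.507 FPKM) and the most abundant hepatocyte marker, Ttr, lower (1.78 ± 0.725 to 0.744 ± 0.253 FPKM; SD, n = 3 each), each of which passed the minimum mean of 1 FPKM through the genotype where it was high. No other marker of these lists was tested but 1 of the mesenchymal list, which was not called. Of the pancreatic acinar markers, 4 of 6 (Cpa1, Pnlip, Prss2 and Amy2a5) were listed at 0 throughout. Immune markers lay between 16.9 and 30.8 FPKM, goblet markers between 2861 and 3385 FPKM and enteroendocrine markers between 257 and 405 FPKM. WT replicate 3 and Esrra-/- replicate 3 held no more than 0.222 FPKM of 4 Y-linked genes in sum, where the other libraries held 27.3 to 46.7 FPKM. In RNA from a mixed epithelium, fewer cells of a type and less RNA per cell cannot be told apart.

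Across the 9 genes, Ass1 fell and Ddah1 was the gene added for its higher level, while Cps1 and Oat had lower means that did not reach a call. A call needed a log2 fold change beyond 0.58 together with p under 0.05 before adjustment in limma, which fits every gene and pools information on the spread between mice. Of the 8 genes taken for their function, 7 had a mean above 1 FPKM and were tested, and Ddah2 was not. Of these 7, 1 was called lower and 0 higher, 2 had an unadjusted p under 0.05 and 0 an adjusted p under 0.05. Over all 10596 genes tested, 3.28% were called lower and 1.35% higher, 10.8% had an unadjusted p under 0.05 and 0.0378% an adjusted p under 0.05. Of the 8 genes taken for their function, 1 had all Esrra-/- values below all WT values and 0 had all above, where 9.14% and 8.45% of all genes tested did. The median log2 fold change of the 7 genes was −0.005, beside 0.03 over all genes tested.

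**Figure D1:**
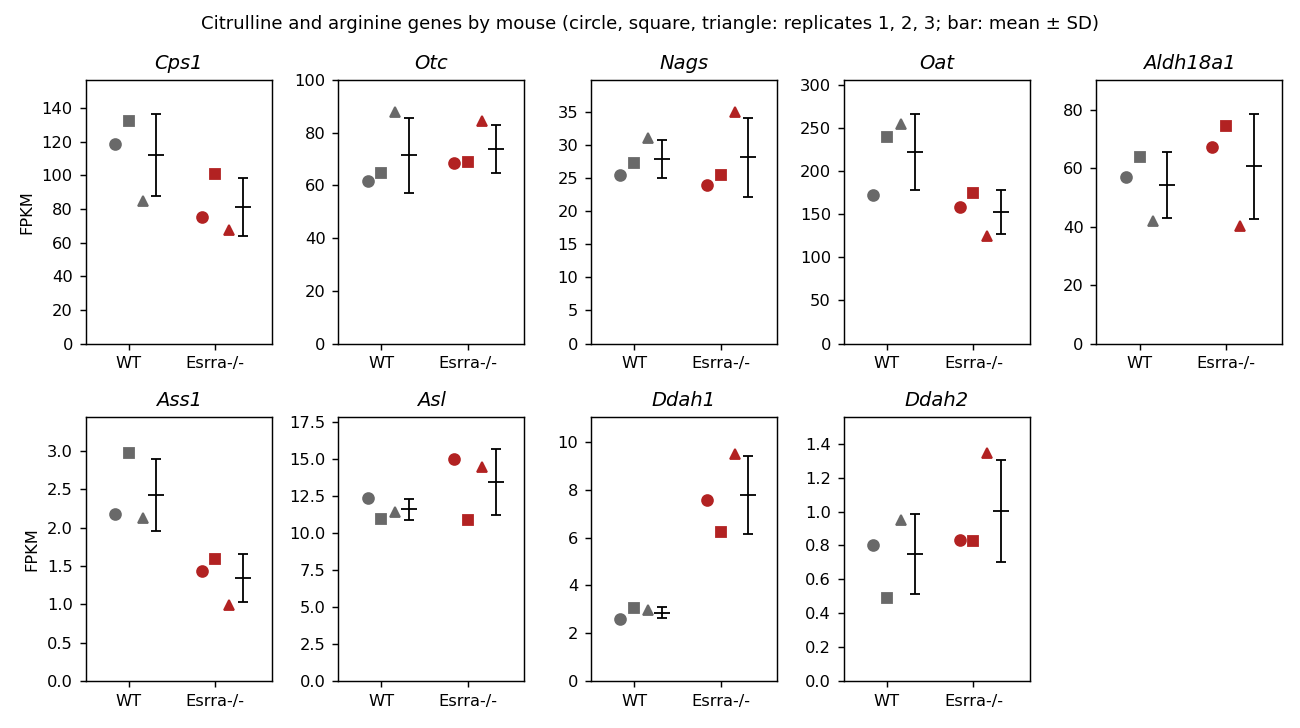
FPKM of the 9 genes in each of the 3 WT and 3 Esrra-/- mice, with the replicate number given by the shape of the point and the mean ± SD by the bar. The genotypes do not overlap for Ass1 and Ddah1, and replicate 3 (triangle) is the highest or lowest point of both genotypes for Cps1, Otc, Nags, Aldh18a1, Ass1 and Ddah2.

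The levels spanned a wide range in WT epithelium. Oat had the highest mean at 222 FPKM, followed by Cps1 at 112, Otc at 71.5, Aldh18a1 at 54.3, Nags at 27.9, Asl at 11.6, Ddah1 at 2.86, Ass1 at 2.43 and Ddah2 at 0.748 FPKM. The order of the means was the same in Esrra-/-. In both genotypes the values of Cps1 overlapped with those of Otc, and those of Otc with those of Aldh18a1. Ddah1 and Ass1 overlapped in WT and not in Esrra-/-, where Ass1 overlapped with Ddah2. Every other pair of neighbours in the order was separate in both genotypes. The mitochondrial enzymes of citrulline synthesis were thus all above the cytosolic pair that turns citrulline into arginine.

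Cps1 makes carbamoyl phosphate from ammonia and bicarbonate, the entry step of the pathway. In mm9 coordinates, used for all gene positions here, it spans 67169600 to 67277833 of chromosome 1. Its level was 118, 132 and 84.9 FPKM in WT replicates 1 to 3 and 75.5, 100.7 and 67.4 FPKM in the Esrra-/- replicates. Esrra-/- replicate 2 stood above WT replicate 3, so the genotypes overlapped. The means were 112 ± 24.4 and 81.2 ± 17.4 FPKM (SD, n = 3 each). The log2 fold change was −0.46 with a 95% interval from −0.99 to 0.07 (limma unadjusted p = 0.0796, adjusted p = 0.519). Without WT replicate 3 the log2 fold change was −0.64 and without Esrra-/- replicate 2 it was −0.62, and both fits gave a call. With 1 of the other 4 libraries left out it lay from −0.42 to −0.32 and gave none (limma unadjusted p from 0.179 to 0.236). With Y-linked transcripts as a covariate the log2 fold change of −0.46 had a limma unadjusted p of 0.0161 (adjusted p = 0.190), still short of −0.58. The log2 difference was −0.52 within the libraries with Y-linked transcripts, 2 of each genotype, and −0.33 between the 2 without them.

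Nags makes N-acetylglutamate, the activator that Cps1 needs. It had 25.4, 27.3 and 31.0 FPKM in WT and 23.9, 25.4 and 34.9 FPKM in Esrra-/-, with the Esrra-/- values lying on both sides of the WT ones. Its log2 fold change was −0.005 (95% interval −0.41 to 0.40, limma adjusted p = 0.996). Nags lies on chromosome 11 from 102006827 to 102010791 and overlaps Gm11586, a transcript of the opposite strand. Reads of the overlap cannot be told apart by strand, since the kit named in the labels does not mark it.

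Otc joins carbamoyl phosphate and ornithine to citrulline. This X-linked gene (9829431 to 9898150) had 61.9, 64.6 and 87.9 FPKM in WT and 68.4, 69.0 and 84.5 FPKM in Esrra-/-. The genotypes overlapped across nearly their whole range, and the log2 fold change was 0.06 (95% interval −0.36 to 0.48, limma adjusted p = 0.923). The ratio of Cps1 to Otc within a library, which no scaling between libraries can change, was 1.91, 2.05 and 0.966 in WT and 1.10, 1.46 and 0.798 in Esrra-/-. The ratio overlapped between genotypes because that of WT replicate 3 lay under the first and second Esrra-/- values.

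Oat and Aldh18a1 supply the ornithine. Oat is the mitochondrial aminotransferase between pyrroline-5-carboxylate and ornithine, and Aldh18a1 is the synthase that makes pyrroline-5-carboxylate from glutamate. Oat had 172, 239 and 254 FPKM in WT and 158, 175 and 125 FPKM in Esrra-/-. All but Esrra-/- replicate 2 of the Esrra-/- values lay below every WT value, and that replicate exceeded WT replicate 1 alone. Its means were 222 ± 44.0 and 152.6 ± 25.6 FPKM (SD, n = 3 each), which is −0.53 ± 0.21 (SE) as a log2 fold change (limma unadjusted p = 0.0391, adjusted p = 0.433) and does not reach −0.58. Without WT replicate 1 the log2 fold change was −0.71 and without Esrra-/- replicate 2 it was −0.64, and both fits gave a call. With 1 of the other 4 libraries left out it lay from −0.57 to −0.39 and gave none (limma unadjusted p from 0.0736 to 0.114). Within the libraries with Y-linked transcripts the log2 difference was −0.29, and between the 2 libraries without them, 1 of each genotype, it was −1.03. Oat lies on chromosome 7 from 139749158 to 139768081, inside a span that the annotation also gives to Fgfr2 on the same strand.

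Aldh18a1 was not called. It had 57.1, 64.0 and 41.8 FPKM in WT and 67.2, 74.7 and 40.3 FPKM in Esrra-/-, where replicates 1 and 2 were above and replicate 3 below all WT values. The log2 fold change was 0.13 with a 95% interval from −0.49 to 0.76 (limma adjusted p = 0.881). A pseudogene, Gm15801, lies within its span on chromosome 19 (40624747 to 40662953).

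**Figure D2:**
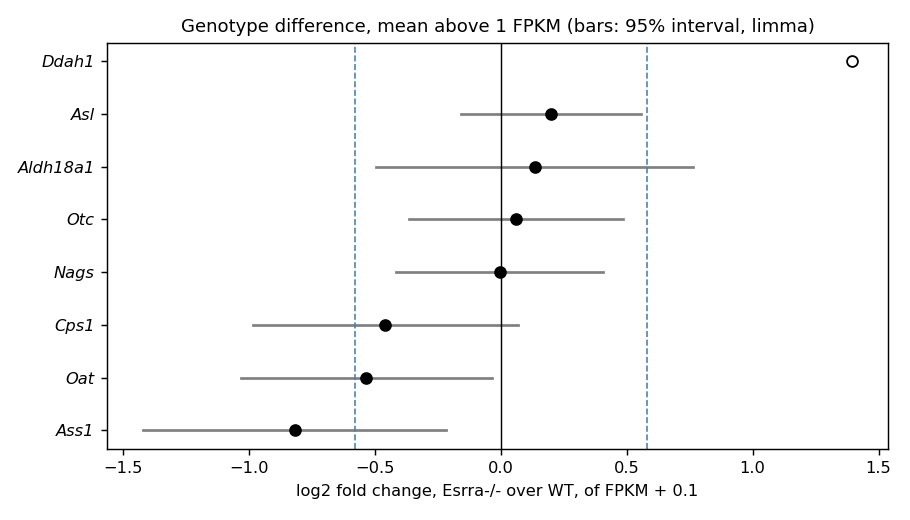
Log2 fold change of the 8 genes with a mean above 1 FPKM, Esrra-/- over WT, on the scale of FPKM + 0.1, with 95% intervals from limma. Dashed lines mark a log2 fold change of −0.58 and 0.58; the intervals of Oat and Ass1 lie below 0, those of the other 5 tested genes span it, and Ddah1 (open point) is shown with no interval because it was chosen for this value.

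Ass1 and Asl, argininosuccinate synthase and lyase, turn citrulline into arginine in the cytosol. Ass1 spans 31325727 to 31376192 of chromosome 2. It had 2.18, 2.97 and 2.13 FPKM in WT and 1.44, 1.60 and 0.989 FPKM in Esrra-/-. All 3 Esrra-/- values were below all WT values. Ass1 fell from 2.43 ± 0.474 to 1.34 ± 0.315 FPKM (SD, n = 3 each), to 55.3% of the WT mean, or −0.82 ± 0.26 (SE) on the log2 scale (limma unadjusted p = 0.0145, adjusted p = 0.356). The log2 difference was −0.71 within the libraries with Y-linked transcripts and −1.03 between the 2 without them. These are low values, and the call was lost without WT replicate 2, where the log2 fold change was −0.67 (limma unadjusted p = 0.0609), and with a pseudocount of 1, where it was −0.55.

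Asl was not called. It lies on chromosome 5 from 130487128 to 130501002 and had 12.4, 11.0 and 11.4 FPKM in WT and 15.0, 10.9 and 14.4 FPKM in Esrra-/-. Esrra-/- replicates 1 and 3 were above and replicate 2 just below the WT values, and the log2 fold change was 0.20 (95% interval −0.16 to 0.56, limma adjusted p = 0.665). The ratio of Ass1 to Asl was 0.176, 0.271 and 0.187 in the WT libraries and 0.0959, 0.147 and 0.0685 in the Esrra-/- libraries, with no overlap.

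Ddah1 hydrolyses asymmetric dimethylarginine, an inhibitor of nitric oxide synthases, to citrulline and dimethylamine, and Ddah2 is its paralog. Ddah1 lies on chromosome 3 from 145421639 to 145557241. It had 2.59, 3.05 and 2.95 FPKM in WT and 7.59, 6.24 and 9.51 FPKM in Esrra-/-, with every Esrra-/- value above every WT value, as the choice of the gene for this rise implies. The means of 2.86 ± 0.241 and 7.78 ± 1.64 FPKM (SD, n = 3 each) differ by 2.72 times. The log2 fold change lay between 1.17 and 1.54 over all alternatives tried. These reuse the values by which the gene was chosen, so this range is no support for the rise. Ddah2 (chromosome 17, 35195980 to 35199040) was at 0.802, 0.490 and 0.953 FPKM in WT and 0.831, 0.826 and 1.35 FPKM in Esrra-/-. Its genotypes overlapped and its mean of 0.875 FPKM over the 6 libraries was under the minimum for a test.

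The 250 bases before the RefSeq start of Ass1, which was called lower, of Ddah1, which was chosen for its rise, and of Nags are shown because they were searched for AAGGTCA, the core of the motif that ESRRA is known to bind, on both strands. Capitals mark a match, which stands in the opposite orientation as TGACCTT. Sequences are from RefSeq on GRCm38.p6, are written 5′ to 3′ on the strand of the gene, and lie at chr2:31470020-31470269, chr3:145758442-145758691 and chr11:102145263-102145512, all on the plus strand.
Ass1: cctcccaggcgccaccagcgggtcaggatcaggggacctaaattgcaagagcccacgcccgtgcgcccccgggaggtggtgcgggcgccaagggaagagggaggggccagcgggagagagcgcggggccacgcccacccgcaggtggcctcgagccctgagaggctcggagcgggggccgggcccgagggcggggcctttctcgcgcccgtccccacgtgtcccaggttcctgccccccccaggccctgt
Ddah1: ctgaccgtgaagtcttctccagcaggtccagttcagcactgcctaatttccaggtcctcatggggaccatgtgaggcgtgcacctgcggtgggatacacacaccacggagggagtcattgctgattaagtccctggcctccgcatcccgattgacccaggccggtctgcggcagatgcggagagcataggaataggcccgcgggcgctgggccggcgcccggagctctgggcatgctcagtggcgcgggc
Nags: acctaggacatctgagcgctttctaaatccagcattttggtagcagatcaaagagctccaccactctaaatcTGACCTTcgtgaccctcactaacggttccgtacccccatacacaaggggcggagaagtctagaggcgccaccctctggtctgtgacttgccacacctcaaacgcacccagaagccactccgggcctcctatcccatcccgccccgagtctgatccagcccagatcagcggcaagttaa

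Of the 9 genes, 7 had a promoter sequence (Cps1 and Asl had none), and AAGGTCA was found in 1 of these, that of Nags, 178 bases before the start. It occurred in 4.08% of the 32851 promoters of the same length. The longer TCAAGGTCA, which contains it, occurred in 0 of the 7 and in 0.387% of all. The windows of Ass1 and Ddah1 hold 75.6% and 64.0% G and C, with 23 and 17 CG pairs. Those of Oat, Ddah2, Aldh18a1, Nags and Otc hold 60%, 58%, 57.2%, 55.6% and 43.6%, with 14, 7, 18, 11 and 1 such pairs.

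The genes also differed in how they varied between mice of the same genotype. Cps1, Aldh18a1 and Ass1 were lowest in replicate 3 of both genotypes, and Otc and Nags were highest there. Of all genes tested, 48.9% were at such an extreme in replicate 3 of both genotypes, against 21.9% for replicate 1 and 35.7% for replicate 2. The replicate 3 libraries are the 2 without Y-linked transcripts, and sex and any other difference of these 2 mice cannot be told apart. Aldh18a1 was 1.45 times higher in the mean of WT replicates 1 and 2 than in replicate 3, and 1.76 times higher in Esrra-/-. For Cps1 the same figures were 1.48 and 1.31.

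Cps1, Aldh18a1 and Ass1 had the same order of mice, with replicate 2 above replicate 1 above replicate 3 in each genotype. The summed crypt markers had this order too, at 295, 353 and 226 FPKM in WT and 183, 268 and 117 FPKM in Esrra-/-, as did 7.77% of the genes tested. Of that sum, Olfm4, the most abundant of these markers, held 167, 205 and 104 FPKM in WT and 94.7, 149 and 36.1 FPKM in Esrra-/-. Most of the other crypt markers did not have this order in both genotypes. The summed Paneth markers followed the same order in each genotype and were below every WT value in 2 of the 3 Esrra-/- libraries. Summed villus markers were highest in replicate 3 of each genotype, as were Otc and Nags. The part of cell composition in the lower Ass1 and in the values of Cps1 was not tested.

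**Figure D3:**
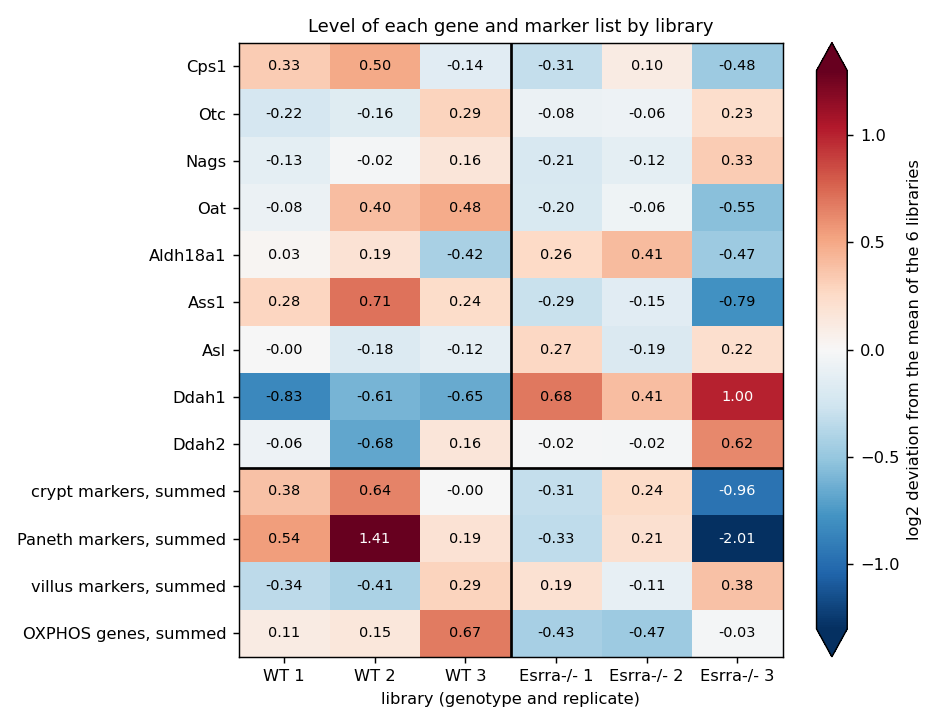
Log2 deviation of each of the 9 genes, and of 4 summed gene lists (crypt, Paneth and villus markers and oxidative phosphorylation), from its own mean over the 6 libraries, with libraries in columns and genes or lists in rows. Ddah1 runs from −0.83 to −0.61 in WT and from 0.41 to 1.00 in Esrra-/-, and Cps1, Aldh18a1 and Ass1 have the same order of mice as the summed crypt markers within each genotype.

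The other genes of arginine metabolism give the setting. A list of 61 genes for the supply, transport and use of these amino acids had 60 genes in the file and 46 that were tested, of which 7 were called lower and 1 higher, where 3.28% and 1.35% of all genes tested were. The median log2 fold change of the list was −0.08. The genes called lower were Gls2, Got1, Got2, Slc25a12, Slc1a5, Srm and Prmt1, and 0 genes of the list had an adjusted p under 0.05 in limma, beside 9 with an unadjusted p under 0.05. Of the 8 called, 3 (Gls2, Slc25a12 and Amd2) had a mean under 1 FPKM in 1 genotype and passed the minimum through the genotype where they were high. Without these 3, 5 genes were lower and 0 higher.

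Glutamine is the main fuel that feeds the pathway, and glutaminases and transaminases pass its nitrogen on. Of 7 tested genes of glutamine and glutamate, 3 were called lower, beside 3.28% of all genes tested. Got2, the mitochondrial aspartate aminotransferase, had 54.7, 45.4 and 61.4 FPKM in WT and 31.7, 37.2 and 36.1 FPKM in Esrra-/-, with no overlap and a log2 fold change of −0.61 (limma unadjusted p = 0.0048, adjusted p = 0.290). Got1, its cytosolic partner, fell by 0.65 on the log2 scale, with an overlap between the genotypes. Gls2, a glutaminase at a low level, fell from 1.58 ± 0.187 to 0.774 ± 0.377 FPKM (SD, n = 3 each), so it passed the minimum through WT. Several of these enzymes work in mitochondria. Of 80 tested nuclear genes of oxidative phosphorylation, taken by their symbols, 47 were called lower and 1 higher, beside 3.28% and 1.35% of all genes tested. Their sum was 22378 to 33101 FPKM in WT and 14971 to 20305 FPKM in Esrra-/-. The part of such a mitochondrial difference in the values of Got2, Oat and Cps1 was not tested. Gpt, alanine aminotransferase and the most abundant of the group, had a log2 fold change of 0.19 (limma adjusted p = 0.817). In the proline group 0 of 7 tested genes were called, and its most abundant gene, the dipeptidase Pepd, had a log2 fold change of 0.11.

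Of the mitochondrial carriers, 4 were tested and 1 was called lower, which passed the minimum through WT. Slc25a12, an aspartate and glutamate carrier, had 2.41, 2.08 and 2.33 FPKM in WT and 1.00, 0.967 and 0.956 FPKM in Esrra-/-. The groups did not overlap, and the Esrra-/- mean of 0.976 FPKM was under the minimum. Its paralog Slc25a13, named after its values were seen, had 9.80 ± 1.11 and 10.2 ± 0.144 FPKM. Slc25a15, the carrier that exchanges ornithine and citrulline and also named after its values were seen, averaged 61.7 ± 10.9 FPKM in WT mice and 69.8 ± 15.9 FPKM in the mutants (SD, n = 3 each). The log2 fold change was 0.16 (95% interval −0.34 to 0.67, limma adjusted p = 0.809). Slc25a22, a glutamate carrier and the most abundant of the group, had a log2 fold change of 0.34 (limma adjusted p = 0.653).

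At the plasma membrane, 1 of 8 tested transporters was lower and the other 7 were not called. Slc1a5, a glutamine transporter, had 15.5, 15.5 and 9.47 FPKM in WT and 9.55, 10.2 and 6.42 FPKM in Esrra-/-. WT replicate 3 was below 2 of the Esrra-/- values, and the log2 fold change was −0.62 (limma unadjusted p = 0.0437, adjusted p = 0.444). Slc7a7, the basolateral exporter of arginine and the most abundant of these genes, had 187, 172 and 265 FPKM in WT and 277, 212 and 332 FPKM in Esrra-/-, a log2 fold change of 0.40 (limma adjusted p = 0.584).

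Of the 7 genes for creatine, agmatine and nitric oxide, 2 were tested and 0 were called, and the other 5 averaged under 1 FPKM. Agmat, which hydrolyses agmatine, was the most abundant at 18.7 ± 4.58 FPKM in WT mice and 17.6 ± 2.80 FPKM in the mutants (SD, n = 3 each). The inducible nitric oxide synthase Nos2 stayed at or under 1.08 FPKM in every library. Nos3, the endothelial synthase, was listed at 0 in all WT libraries and at no more than 0.0138 FPKM in Esrra-/-. Nos2 and Nos3 were named after their values were seen.

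Polyamine synthesis starts from ornithine. Of 10 tested polyamine genes, 1 was lower and 1 higher. Srm, spermidine synthase, had 12.2, 10.3 and 9.87 FPKM in WT and 5.66, 8.29 and 6.17 FPKM in Esrra-/-, with no overlap and a log2 fold change of −0.69 (limma unadjusted p = 0.0048, adjusted p = 0.290). Amd2 had 0.562, 0 and 0 FPKM in WT and 3.30, 1.41 and 4.57 FPKM in Esrra-/-. It passed the minimum through Esrra-/- and was not tested when every library had to exceed 1 FPKM. It is close in sequence to Amd1, so the split of reads between them is uncertain, and its log2 fold change rests on the pseudocount. Amd1, S-adenosylmethionine decarboxylase, named after its values were seen, had a log2 fold change of −0.05. Oaz1, the antizyme of ornithine decarboxylase and the most abundant gene of the group, had one of −0.16 (limma adjusted p = 0.840).

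Protein arginine methyltransferases make the methylarginines that are released when proteins are degraded, and Ddah1 removes asymmetric dimethylarginine among them. Of 8 tested genes, 1 was called. Prmt1, the main asymmetric methyltransferase and the most abundant of the group over all 6 libraries, had 22.4, 24.0 and 18.2 FPKM in WT and 13.0, 14.5 and 14.0 FPKM in Esrra-/-. Carm1, another arginine methyltransferase, was named after its values were seen. Its mean was 15.6 FPKM in WT and 17.6 FPKM in Esrra-/-, where the mean of Prmt1 was 13.8 FPKM. All Esrra-/- values of Prmt1 were below all WT values, and its log2 fold change was −0.63 ± 0.14 (SE; limma unadjusted p = 0.0024, adjusted p = 0.256).

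**Figure D4:**
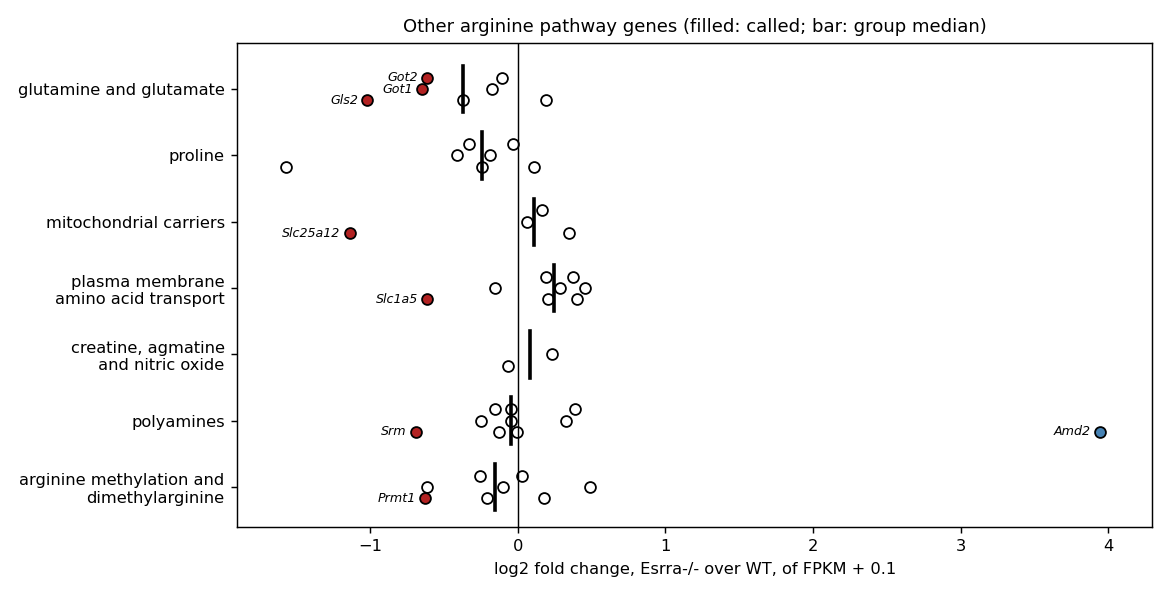
Log2 fold change, Esrra-/- over WT on the scale of FPKM + 0.1, of the 46 tested genes of the wider list, by group, with the median of each group as a bar. Filled points are the 7 genes called lower and the 1 called higher; the medians of the groups lie between −0.37 for glutamine and glutamate and 0.25 for plasma membrane transport.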

How the data were processed

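Duodenal epithelial RNA of 3 WT and 3 Esrra-/- mice was sequenced, 1 library for each mouse. The authors checked reads with fastQC (version 0.11.3), quantified them with Kallisto (2.1.0) against mm9 and computed FPKM with DESeq2 (2.2.1), versions as in the submitters' processing notes. The annotation is not given in the sources used here. The deposited FPKM of 22611 genes were used. A second deposited table holds the authors' own comparison and was not used. Of the symbols, 22586 were found in GENCODE M1, whose mm9 coordinates are given.

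Genes with a mean above 1 FPKM (10596) were tested as log2(FPKM + 0.1) with limma 3.58.1 in R 4.3.3 (lmFit, eBayes with a trend, Benjamini-Hochberg adjustment), a scale that understates changes of low genes. The script was tested on simulated data. The number of reads per library is not given by FPKM; from the ratios of values under 0.2 FPKM, 1 read was worth 0.976 to 1.21 times as much as in WT replicate 1, so precision is taken from the spread between mice. The kit named in the labels (TruSeq RNA v2) does not mark strand.

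The 9 genes and the lists were chosen with earlier results of these data known, and Ddah1 for its rise. Some genes of these lists are not reported here. Named from the wider list were the genes called and the most abundant gene of each group, beside those said to be named later. Alternatives were a pseudocount of 1, no filter, a minimum of 1 FPKM in every library, quantile and median-ratio scaling, no trend, the replicate number as a block, Y-linked transcripts as a covariate, each library left out, an adjusted p and, added after seeing the data, both replicate 3 libraries left out.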

Additional observations from a re-analysis of the deposited data

How the results depend on the processing

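Of the 8 genes taken for their function, the count called lower (1) was 0 with a pseudocount of 1, 0 with FPKM above 1 in all 6 libraries, where Ass1 was not tested, and 0 at an adjusted p under 0.05, and it ran from 0 to 3 with 1 library left out (3, namely Ass1, Cps1 and Oat, without Esrra-/- replicate 2, 0 without WT replicate 2). The count called higher was 0 throughout these. In the wider list, 7 lower and 1 higher became 0 and 0 at an adjusted p under 0.05, the higher count was 0 with FPKM above 1 in all 6 libraries, and leaving out 1 library gave 2 to 7 lower (2 without Esrra-/- replicate 1) and 1 to 3 higher (3 without Esrra-/- replicate 2). Without replicate 3 of both genotypes, 5 and 2 genes of the list were lower and higher. Over all genes, 348 lower and 143 higher became 528 and 277 with no filter and 2 and 2 at an adjusted p under 0.05, and ran from 252 to 533 and from 143 to 214 with 1 library left out.

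Directions that turned belonged to genes with small differences, each with 1 library left out. The log2 fold change of Otc ran from −0.039 to 0.22, that of Nags from −0.17 to 0.10 and that of Aldh18a1 from −0.042 to 0.40. Those of Cps1, Oat, Ass1 and Asl kept their sign under every alternative in which each was tested. The limma adjusted p of Ass1 ran from 0.119 to 0.762. The labels give replicate numbers and do not say whether these pair the mice. Deviations from the group means correlated by 0.01, 0.26 and 0.38 between same-numbered mice across genes. WT replicates 2 and 3 correlated best with their own number, and WT replicate 1 did not. These values cannot settle a pairing, since both replicate 3 libraries also lack Y-linked transcripts. With the replicate number as a block, 441 genes were lower and 192 higher, 1 of the 8 genes was called lower and 0 higher, and 9 and 1 genes of the wider list were. The limma unadjusted p of Cps1 was then 0.0061. The cause of these shifts was not tested. The few reads behind Ass1, Ddah2, Gls2 and Amd2 limit their precision.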
